A study of Mus musculus with 39 samples.

Results

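H3K27me3 was compared between sorted populations of mouse naive extra-embryonic endoderm (nEnd) cells, and 401 regions carried a listed H3K27me3 peak in all 9 libraries of that mark. The peaks of the 9 lists were merged wherever they overlapped or touched, which gave 10684 regions, and a region was kept as constant when every list placed a peak in it. The 401 constant regions were thus chosen by the presence of H3K27me3 in these same libraries and made up 3.75% of the merged regions. Being constant here means that a peak was listed in all 3 populations, not that the signal was equal.

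nEnd cells model the primitive endoderm of the blastocyst in culture. The untreated cells came from a single reporter line, OCT4-mCherry, in which the reporter marks OCT4, a factor of pluripotent cells, and were stained for PDGFRA, a receptor of primitive endoderm. FACS gave the Oct4+, double positive (DP) and Pdgfra+ populations, with 3 libraries of each for each of 4 marks (H3K27me3, H3K27ac, H3K4me1 and H3K9me3, 36 libraries in all). Nothing in the labels says whether the replicates were separate cultures, so p-values measure the spread between libraries, which may be technical. The H3K27ac lists were set beside the gates: a peak lay over the start of Nanog in 3, 0 and 0 libraries of Oct4+, DP and Pdgfra+, over Pou5f1 (OCT4) in 3, 1 and 1, over Pdgfra in 0, 2 and 3, over Gata6 in 1, 3 and 3 and over Foxa2 in 0, 3 and 3. Of the other markers, Sox2 had one in 3, 0 and 0 libraries, Zfp42 in 2, 1 and 0, Gata4 in 0, 2 and 2 and Sox7 in 1, 3 and 3. Not all matched the gates, as Esrrb had one in 0, 0 and 0 and Sox17 in 0, 2 and 0. At Pou5f1 the DP lists were thus like the Pdgfra+ lists, although DP cells were gated as OCT4 positive. Among trophectoderm markers no H3K27ac list held a peak over the start of Cdx2, Gata3 or Eomes, while Elf5 had one in 2, 0 and 0 libraries and the keratin gene Krt8 in 2, 3 and 3.

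H3K27me3 is laid down by Polycomb repressive complex 2 and is read by CBX proteins of Polycomb repressive complex 1. In embryonic stem cells it forms broad domains over CpG islands, stretches of DNA where CpG dinucleotides are kept, and above all over those of silent developmental regulators such as Hox genes. The same promoters can also carry marks of open chromatin. H3K4me1 marks enhancers and flanks of promoters, H3K27ac marks active ones and cannot sit on the same lysine as H3K27me3, and H3K9me3 marks heterochromatin.

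The sequences below show what lay under the peaks of constant regions, since DNA was no part of the choice. Each is a 300-base window free of annotated exons, taken from the bases listed in all 9 libraries as the window with the most CpG, so its CpG number is not that of an average window. They are read 5′ to 3′ on the plus strand of GRCm38.p6 (RefSeq), and CG is in capitals.
Lmx1b: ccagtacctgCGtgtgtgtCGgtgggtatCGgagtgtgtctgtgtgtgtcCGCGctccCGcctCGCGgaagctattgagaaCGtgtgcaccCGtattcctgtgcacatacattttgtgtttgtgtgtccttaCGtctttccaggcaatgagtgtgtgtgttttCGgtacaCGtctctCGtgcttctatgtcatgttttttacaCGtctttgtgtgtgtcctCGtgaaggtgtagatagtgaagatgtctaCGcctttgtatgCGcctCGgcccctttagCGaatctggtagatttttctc
Hoxa domain: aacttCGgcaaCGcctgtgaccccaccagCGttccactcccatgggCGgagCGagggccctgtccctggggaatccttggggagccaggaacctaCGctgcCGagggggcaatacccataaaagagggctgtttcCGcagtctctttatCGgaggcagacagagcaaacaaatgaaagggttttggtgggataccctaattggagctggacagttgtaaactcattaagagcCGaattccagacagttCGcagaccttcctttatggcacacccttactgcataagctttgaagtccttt
Gata2: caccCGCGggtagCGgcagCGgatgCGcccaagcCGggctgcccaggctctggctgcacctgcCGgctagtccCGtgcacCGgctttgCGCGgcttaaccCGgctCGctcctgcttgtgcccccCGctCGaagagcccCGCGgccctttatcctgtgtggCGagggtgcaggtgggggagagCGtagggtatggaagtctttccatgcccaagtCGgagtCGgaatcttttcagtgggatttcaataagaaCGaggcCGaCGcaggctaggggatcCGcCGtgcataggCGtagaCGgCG
No coding start, beside Fbln2: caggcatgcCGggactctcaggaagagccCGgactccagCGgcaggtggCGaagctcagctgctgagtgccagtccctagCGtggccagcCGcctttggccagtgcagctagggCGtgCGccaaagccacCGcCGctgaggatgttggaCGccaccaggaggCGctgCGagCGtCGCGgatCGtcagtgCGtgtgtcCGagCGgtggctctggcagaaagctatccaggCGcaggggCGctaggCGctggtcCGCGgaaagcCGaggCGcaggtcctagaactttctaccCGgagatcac
Pitx1: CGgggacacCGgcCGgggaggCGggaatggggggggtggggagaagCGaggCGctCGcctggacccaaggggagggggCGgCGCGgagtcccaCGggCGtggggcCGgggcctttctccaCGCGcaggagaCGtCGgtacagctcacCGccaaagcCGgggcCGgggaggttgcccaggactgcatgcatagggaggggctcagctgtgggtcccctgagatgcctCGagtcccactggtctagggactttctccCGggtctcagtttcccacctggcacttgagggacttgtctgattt
Cldn4 and Cldn3: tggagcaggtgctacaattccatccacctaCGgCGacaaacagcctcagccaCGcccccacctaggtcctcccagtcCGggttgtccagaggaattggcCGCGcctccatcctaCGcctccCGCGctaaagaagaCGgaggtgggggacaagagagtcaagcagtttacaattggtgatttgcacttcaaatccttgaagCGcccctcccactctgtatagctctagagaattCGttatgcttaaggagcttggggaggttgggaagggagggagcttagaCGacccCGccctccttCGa
Rap1gap: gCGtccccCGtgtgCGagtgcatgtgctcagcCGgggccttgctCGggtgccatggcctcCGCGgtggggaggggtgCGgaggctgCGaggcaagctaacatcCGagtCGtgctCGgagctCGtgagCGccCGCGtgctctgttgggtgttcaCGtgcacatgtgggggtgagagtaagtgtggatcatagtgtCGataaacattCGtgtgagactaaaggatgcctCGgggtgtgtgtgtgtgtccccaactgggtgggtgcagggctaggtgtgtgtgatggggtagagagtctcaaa
The Lmx1b window (chr2:33642598-33642897, 20 CG) lay 2236 bases from the start of Lmx1b, outside the bodies of coding genes. The window of the Hoxa domain (chr6:52221863-52222162, 11 CG) was 158 bases from the start of Hoxa7, also outside coding gene bodies. The Gata2 window (chr6:88194245-88194544, 29 CG) was intronic, 503 bases from the start. The next window (chr6:91285453-91285752, 28 CG) had its nearest coding start, Fbln2, 73147 bases away. The Pitx1 window (chr13:55836195-55836494, 22 CG) was 152 bases from the start of Pitx1, outside coding genes. The Cldn4 and Cldn3 window (chr5:134985692-134985991, 15 CG) was 373 bases from the start of Cldn3, and the Rap1gap window (chr4:137681762-137682061, 20 CG) was intronic and 17185 bases from a start. The windows shown thus lay both beside coding starts and far from them.

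CpG density was measured without choosing a window by its CpG, in the 1 kb at the median position of the libraries' strongest signal. Constant regions had a median ratio of observed to expected CpG of 0.676, with quartiles of 0.4997 and 0.774, and a median GC content of 63.0%. Regions with a peak in 1 to 8 libraries had medians of 0.265 and 52.8%, and the genome as a whole had 0.190 and 41.7%. A window was called CpG-rich above a ratio of 0.6 and a GC content of 50%. This held for 246 of the 401 constant regions (61.3%), against 22.0% of all merged regions. The share rose with the number of libraries, from 7.51% of regions in 1 library to 36.9% in 5 libraries and 59.2% in 8, so constant regions stood at the end of a gradient, near those with 8 libraries. These shares describe regions, with no test.

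**Figure D1:**
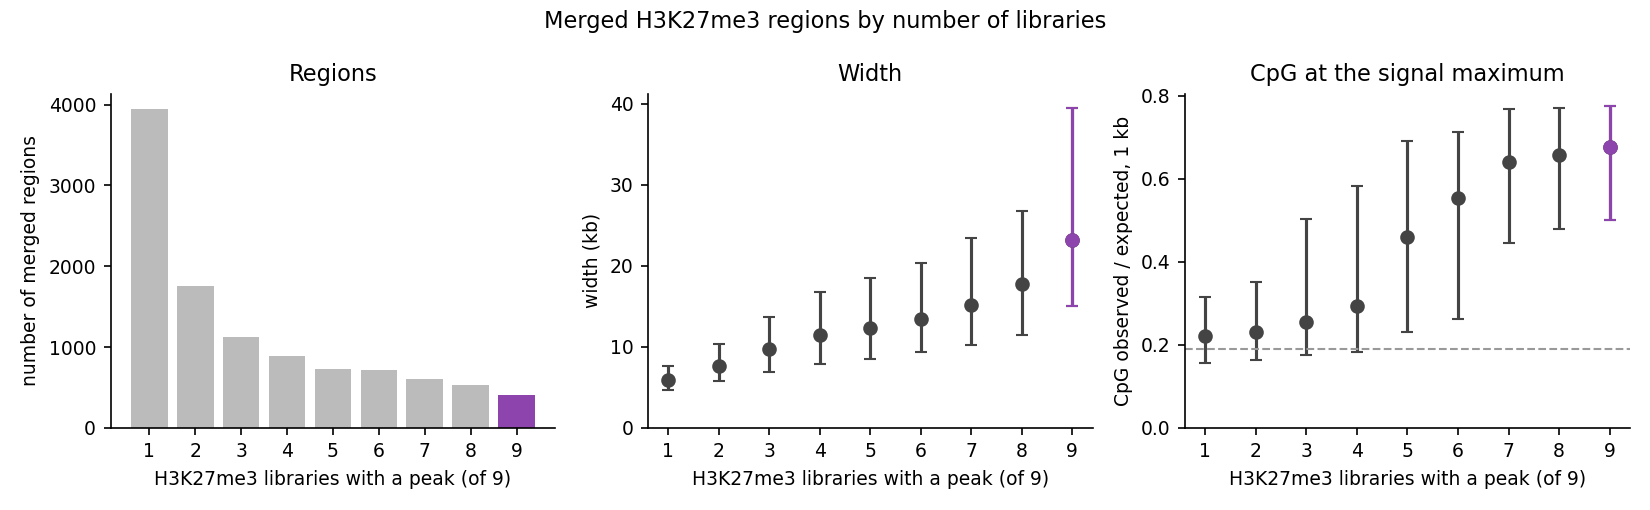
Merged H3K27me3 regions against the number of the 9 libraries that list a peak, with constant regions in purple: the number of regions (bars), their width in kb and their CpG observed to expected ratio in 1 kb (points, medians; bars, quartiles; dashed line, genome at 0.190). Median width runs from 5850 bp in 1 library to 23250 bp in 9, and the CpG ratio from 0.222 to 0.676.

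Constant regions were wide, with a median of 23250 bp (range 3401 to 137707) against 8101 bp for the others, but the bases shared by all lists were few. In 320 of the 401, at least 1 base was listed in all 9 libraries. In these 320, the bases listed by all 9 had a median of 2018.5 bp, which was a median 9.85% of the region. In 72 the most was 8 libraries and in 9 it was under 8, as chains of overlapping peaks made 1 region with no base common to all lists. A single peak in every list was found at 138 regions. The strongest signal moved by a median of 3281.5 bp between libraries, and in 74 regions it stayed within 1 kb in all 9.

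Most regions just below the threshold were missing from the 2 shortest lists. H3K27me3 lists held 1143 to 8672 peaks, the fewest in Pdgfra+ replicate 1 (1143) and Oct4+ replicate 1 (1629). Of the 530 regions with a peak in 8 of 9 libraries, 320 lacked one in Pdgfra+ replicate 1, 154 in Oct4+ replicate 1, 50 in Pdgfra+ replicate 2, 4 in Oct4+ replicate 2 and 2 in DP replicate 1. Without Pdgfra+ replicate 1 the number of constant regions would be 721, and without Oct4+ replicate 1 it would be 555. Relative signal was log2 of total signal over the library's median at the constant regions. Its mean over libraries had a median of 0.01 over all constant regions, a value that this scaling itself largely sets. For the 8-of-9 regions, over the libraries that list them, the median was -0.61. Sequencing depth is unknown, so a region missing from a short list can still carry the mark.

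Constant regions took 17.8 to 51.8% of the signal in each list, on 12.7 to 50.1% of the listed bases. Their strongest peak sat at a median percentile of 67.9 among the peaks of Pdgfra+ replicate 1 and 93.9 among those of DP replicate 2.

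Most constant regions held a gene. The annotated start of at least 1 coding gene lay in 363 (90.5%), against 39.5% of all merged regions. A start was counted anywhere in the merged region, not only under a peak, here and in the gene counts below. Of the 320 regions with a base listed in all 9 libraries, 288 held a coding start, and 159 held one within those bases. Per length the gap was small, with 4.28 coding starts per 100 kb in constant regions and 3.86 in the others. The signal maximum was within 1 kb of a coding start in 51.9% of constant regions and 22.4% of the others. In all, 509 coding genes (2.32% of 21938) had their start in a constant region. In 38 regions there was no coding start, and in 19 of them no start of any annotated gene.

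Developmental transcription factors were the largest named group. The lists used here were drawn up with earlier results of these data known, so they describe and do not test. Genes of 9 transcription factor families lay in 73 constant regions (18.2%), against 1.80% of the others, and listed ligands of 4 signalling families in 9 (2.24%) against 0.554%. Beside the 2.32% of all coding genes, the share of genes in constant regions was 71.8% for Hox genes (28 of 39), 28.7% for other homeobox genes (33 of 115), 27.6% for basic helix-loop-helix factors (16 of 58) and 26.7% for Wnt ligands and antagonists (8 of 30). It was 2 of 6 GATA factors, 2 of 9 Pax, 3 of 17 T-box, 3 of 19 Sox, 4 of 26 forkhead and 7 of 38 zinc finger regulators. The other ligand families had 1 gene each, Gdf7 of 31 BMP, GDF and TGF-beta genes, Fgf8 of 22 FGF genes and Dll4 of 8 Hedgehog and Notch ligands. None of 25 endoderm, 25 pluripotency, 23 imprinted or 76 ribosomal protein genes lay in one. At the 2.32% of all coding genes, lists this short would hold few or none, so these zeros do not set the lists apart. Regions with 8 libraries held listed genes too, 8 Hox, 32 other homeobox, 4 basic helix-loop-helix and 10 Wnt genes. They also held 0 GATA, 4 Pax, 2 T-box, 2 Sox, 7 forkhead and 6 zinc finger genes, and 4, 2 and 5 of the other ligand families. Of the lists with no gene in a constant region, they held 4 imprinted, 1 pluripotency, 0 endoderm and 0 ribosomal protein genes. The listed families were thus not particular to constant regions. Constant regions were also wider and held a coding start in 90.5% against 37.5% of the others, which raises a share per region.

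The Hox genes, which pattern the body axis, fell in 5 constant regions. Hoxa2 to Hoxa11 shared one (chr6:52162175-52255380), Hoxb1 to Hoxb9 another (chr11:96267621-96385977) and Hoxd3 to Hoxd13 with the homeobox gene Evx2 one more (chr2:74645013-74717980), while Hoxa13 and Hoxb13 had their own. In the Hoxa domain total signal (fragment coverage summed over the listed bases) was 48993, 275926 and 935696 in Oct4+, 928800, 829225 and 511753 in DP and 28058, 146537 and 774237 in Pdgfra+. Raw totals varied widely between replicates of a population, while on the relative scale the population means were 2.24 ± 0.46, 2.23 ± 0.13 and 2.17 ± 0.27 (log2, SD, n = 3). The Hoxc cluster was not constant. It was split into a pair of regions with 8 libraries each, the one with Hoxc5 and Hoxc8 to Hoxc11 missing in Pdgfra+ replicate 1 and the one with Hoxc4 and Hoxc6 in Oct4+ replicate 1, and Hoxc12 and Hoxc13 reached 5 libraries. Hoxd1 was absent from Pdgfra+ replicate 1.

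The highest mean relative signal was at Lmx1b, a LIM homeobox factor of limb and midbrain (chr2:33555522-33662822). Its totals were 121353, 461848 and 1570692 in Oct4+, 1048203, 769344 and 499910 in DP and 30126, 126565 and 815637 in Pdgfra+. Relative signal was 3.17 ± 0.18 in Oct4+, 2.24 ± 0.03 in DP and 2.15 ± 0.15 in Pdgfra+, with Oct4+ above both others in every library. The Tbx1 domain, with a T-box factor of the pharyngeal arches and the starts of Gp1bb and Sept5, followed at 2.38 ± 0.15, 2.16 ± 0.06 and 2.21 ± 0.32, where Pdgfra+ overlapped both others and every Oct4+ library lay above every DP library. The Hoxa domain came next. Atoh8, a basic helix-loop-helix factor, stood at 1.81 ± 0.23, 2.04 ± 0.07 and 2.62 ± 0.36. The others of the 10 highest were the domain beside Fbln2, the Lbhd2, Exoc3l4 and Tnfaip2 domain, the Nup210, Hdac11 and Fbln2 domain, Fbxo41 with the zinc finger gene Egr4, Plxnd1, a semaphorin receptor of vessels, and the Pak6, Ankrd63 and Plcb2 domain. Of these 10 regions, 6 were on chromosome 6.

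Further homeobox genes in the order of mean signal were Emx1, a factor of the cortex, at 1.56 ± 0.08, 1.37 ± 0.07 and 1.63 ± 0.46, Hmx1 at 1.78 ± 0.27, 1.19 ± 0.04 and 1.08 ± 0.29, Nkx1-1, Vax2 and Tlx1. Basic helix-loop-helix genes after Atoh8 were Lyl1 and Neurod2, then Hes3, Hes2 and the Notch target Hes5. Among Wnt ligands Wnt7a came first, at 0.95 ± 0.55, 1.58 ± 0.07 and 1.36 ± 0.18, then Wnt3, with Wnt10b and Wnt1 in a shared region and Wnt9a and Wnt3a in another. Pax7 and Pax3, Sox10, Sox1 and Sox18, Foxs1, Foxd2, Foxi3 and Foxe1 and the zinc finger genes Prdm12, Prdm16, Insm1 and Fezf1 were further members of these lists. The axon guidance list had Plxnd1, Sema3f, Unc5a and Slit3.

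Of 25 trophectoderm genes 3 were in constant regions, Gata2, Gata3 and Ascl2. Gata2 (chr6:88185355-88210846), a GATA factor of trophoblast and blood, had totals of 40234, 123004 and 378089 in Oct4+, 545228, 411004 and 301722 in DP and 17031, 78342 and 307797 in Pdgfra+. Relative signal was 1.32 ± 0.24, 1.38 ± 0.09 and 1.18 ± 0.34, which overlapped. The start of Gata3 itself had a peak in 2, 3 and 1 libraries of Oct4+, DP and Pdgfra+, and its region, shared with 2 Riken coding genes, was constant through neighbouring peaks. Cdx2 had a peak at its start in 2, 3 and 2 libraries, Tfap2c in 2, 3 and 2 and Eomes in 2, 2 and 1. Their regions had peaks in 8, 8 and 5 libraries. No H3K27me3 list held a peak at the start of the pluripotency genes Nanog, Pou5f1 or Tfcp2l1, and Dppa3 and Esrrb had one in a single library, of Oct4+ and DP respectively. In contrast, Col4a1 and Col4a2, collagens of the parietal endoderm, had one in 3, 0 and 0. Among regions with 8 libraries were Lhx2, Foxf1 and Shh (missing in Pdgfra+ replicate 1), and Pax2, Lbx1 and the imprinted genes Cdkn1c, Slc22a18 and Phlda2 (missing in Oct4+ replicate 1).

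Signal differed between populations within the constant set. The difference of the population means of relative signal, Oct4+ minus Pdgfra+, had quartiles of -0.34 and 0.40 over the 401 regions and reached from -3.16 to 2.07. It was within 1 log2 unit at 357 regions, beyond it with Oct4+ higher at 13 and with Pdgfra+ higher at 31. All Oct4+ libraries were above all Pdgfra+ libraries at 41 regions and the reverse held at 46. Of the 406 regions with a peak in these 6 libraries, which are nearly the same regions, this held for 10.3% and 11.3%. The median SD between replicates was 0.35 in Oct4+, 0.13 in DP and 0.47 in Pdgfra+ (log2). H3K27me3 chose the regions, so these are descriptions with no test. Total signal is summed over listed bases, and the mean relative signal ranked much as width did (Spearman's rho = 0.85 across 401 regions that share the same libraries).

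The largest difference toward Oct4+ was at Pitx1, a homeobox factor of hindlimb and pituitary (chr13:55820611-55849382). Totals were 36527, 111078 and 357551 in Oct4+, 327673, 237242 and 171543 in DP and 6048, 9094 and 103071 in Pdgfra+. Relative signal was 1.19 ± 0.21, 0.60 ± 0.07 and -0.88 ± 0.64, with no overlap of Oct4+ and Pdgfra+. The listed peaks covered 8356, 15796 and 28772 bp in Oct4+ and 2065, 2709 and 10996 bp in Pdgfra+. Others with large differences were Dll4, a Notch ligand, with Chac1 (a difference of 1.71), Nkx1-1 (1.49), a region without a coding start near Mkln1 (1.29) and Col8a2 (1.24). At Dll4 relative signal was 1.77 ± 0.11, 1.35 ± 0.10 and 0.07 ± 0.71.

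Toward Pdgfra+, the largest difference was at the widest constant region, 137707 bp over Nup210, the histone deacetylase gene Hdac11 and Fbln2, a gene of the extracellular matrix (chr6:91086264-91223970). Its totals were 10606, 21282 and 250405 in Oct4+, 1375858, 1085754 and 761471 in DP and 38261, 239685 and 1274813 in Pdgfra+. Relative signal was -0.37 ± 0.76, 2.74 ± 0.08 and 2.79 ± 0.42, so DP lay with Pdgfra+. At most 7 libraries shared a base here. The neighbouring domain beyond Fbln2 (chr6:91225955-91310788), with no coding start, had 1.17 ± 0.16, 2.43 ± 0.09 and 2.66 ± 0.48.

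Rap1gap, which codes for a Rap GTPase activating protein (chr4:137661599-137743171), had totals of 11421, 23291 and 59379 in Oct4+, 741060, 649241 and 417303 in DP and 9476, 107555 and 707038 in Pdgfra+. Relative signal was -0.98 ± 0.63, 1.90 ± 0.12 and 1.45 ± 0.98. In Oct4+ the listed peaks covered 2617, 3017 and 4785 bp, and in Pdgfra+ 2458, 26781 and 80032 bp. The tight junction genes Cldn4 and Cldn3 (chr5:134942487-134999387) had totals of 9277, 16220 and 43011 in Oct4+, 402510, 338400 and 210297 in DP and 11549, 52982 and 352185 in Pdgfra+, or -1.41 ± 0.72, 0.97 ± 0.08 and 0.87 ± 0.24 on the relative scale. Oct4+ peaks there spanned 2913, 4157 and 4129 bp over the start of Cldn3, and DP peaks 34510, 39334 and 33260 bp. At both loci part of the short Oct4+ peak was listed in all 9 libraries, and the breadth around it was not. Pdgfra+ replicate 1, the shortest list, was also narrow at Rap1gap. Next in order were P3h3, Gpr162 and Cd4 (-1.81), Theg with C2cd4c (-1.78) and Gfy with Pth2 (-1.75).

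**Figure D2:**
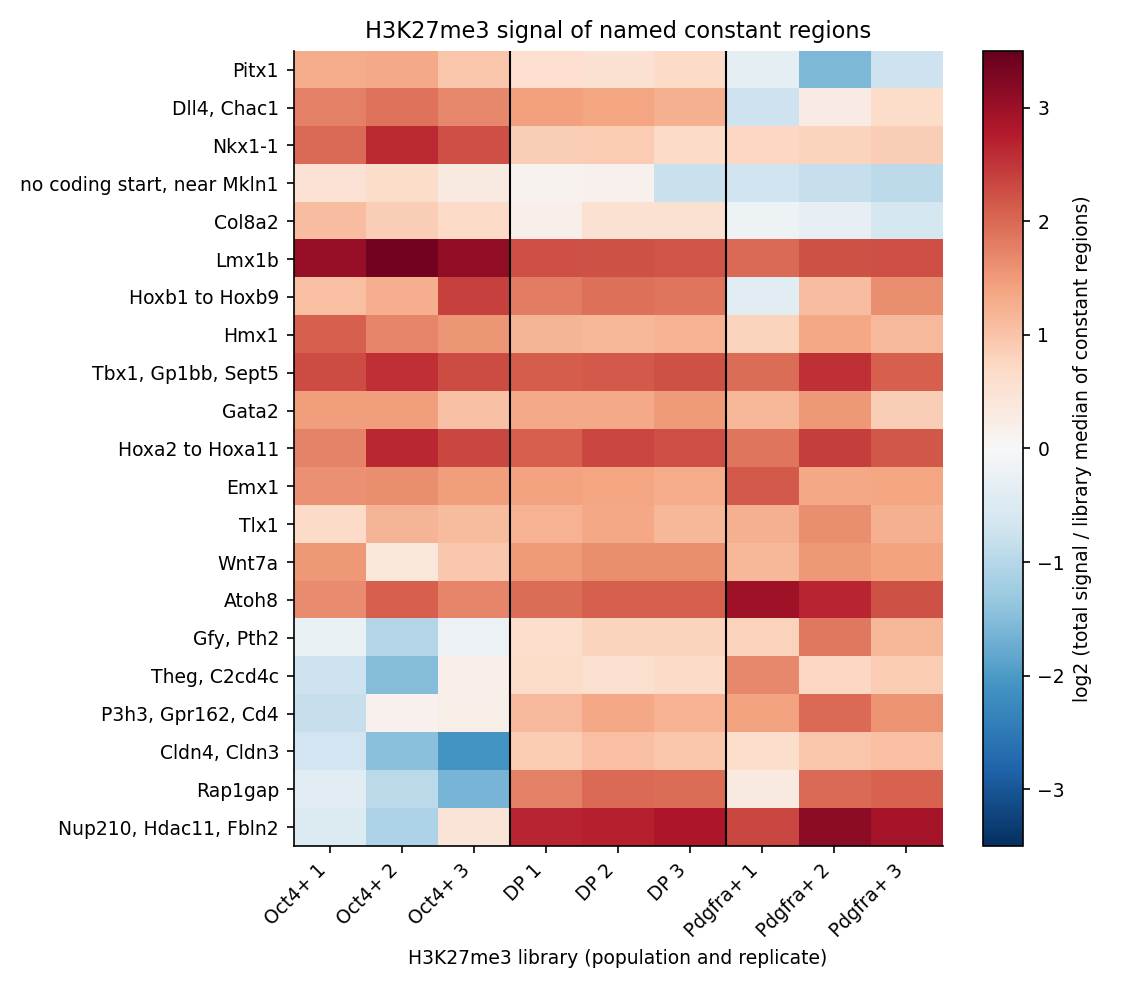
H3K27me3 signal of named constant regions (rows, ordered by Oct4+ minus Pdgfra+) in the 9 libraries (columns), as log2 of total signal over the library's median of the 401 regions, red above and blue below it. Pitx1 falls from red in Oct4+ to blue in Pdgfra+, Cldn4 with Cldn3 and Rap1gap do the reverse, and the Hoxa domain, Tbx1 and Gata2 are red throughout.

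**Figure D3:**
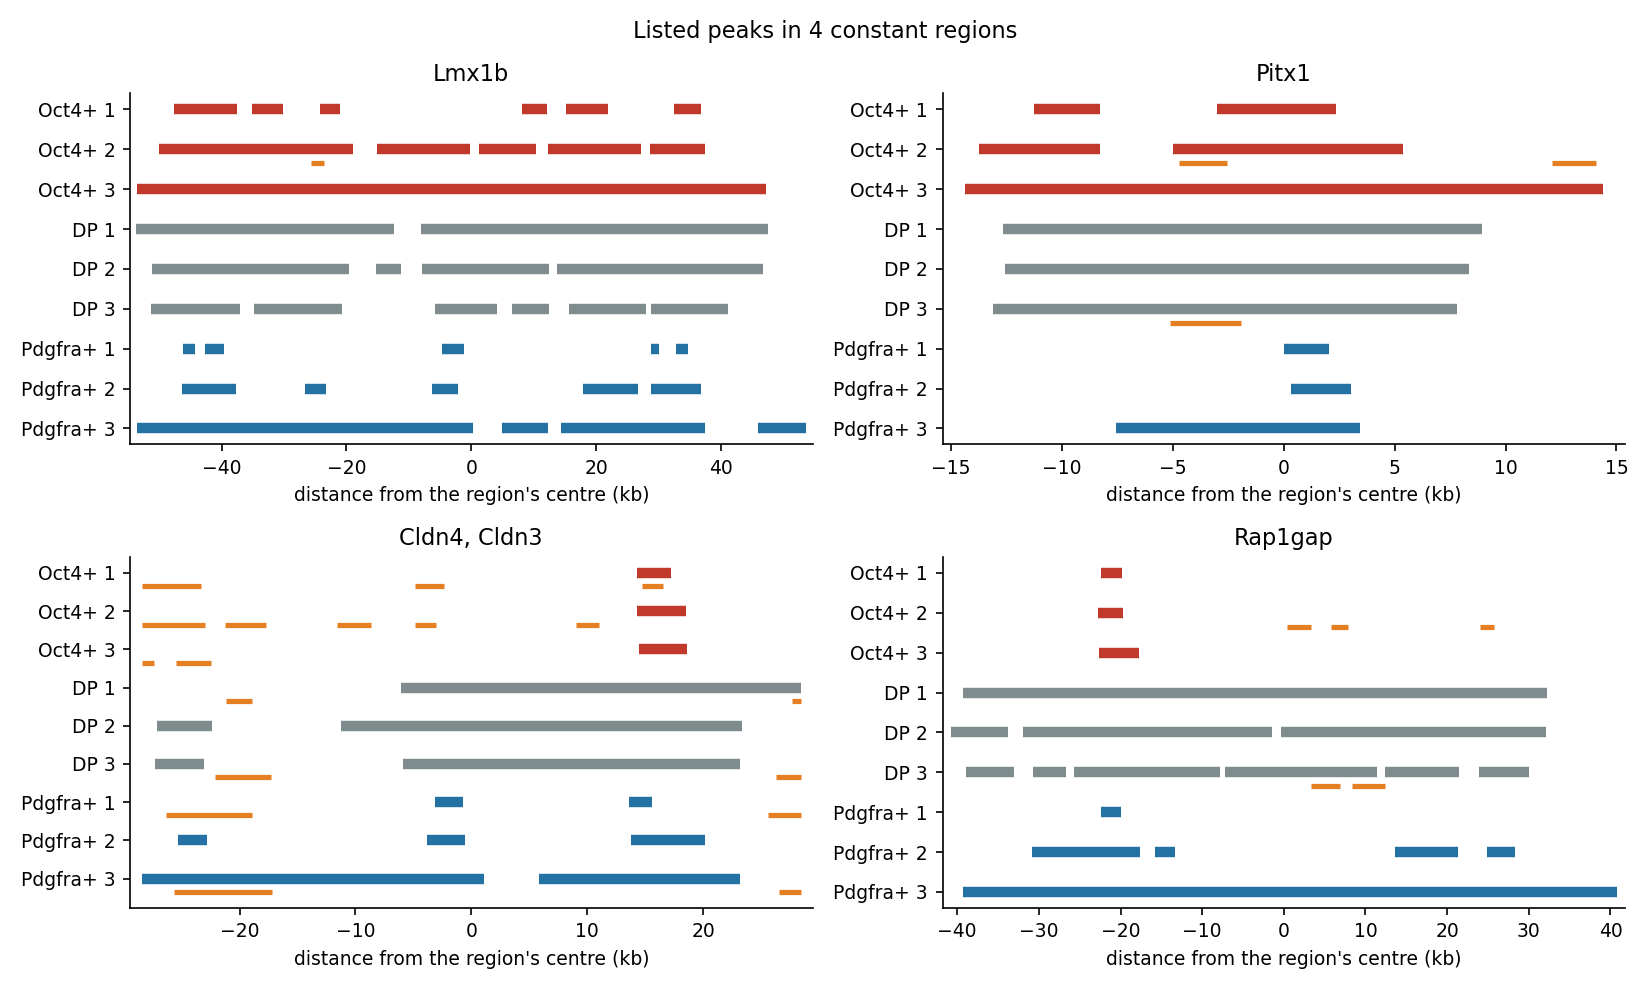
Listed H3K27me3 peaks (thick bars, red Oct4+, grey DP, blue Pdgfra+) and H3K27ac peaks of the same population and replicate number (thin orange bars) in 4 constant regions, by distance in kb from the region's centre. At Rap1gap and Cldn4 with Cldn3 each Oct4+ list has 1 short H3K27me3 peak, as does Pdgfra+ replicate 1 at Rap1gap, while DP peaks cover most of the Rap1gap region.

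DP differed from the mean of the others by -1.10 to 1.67. The highest were Rap1gap (1.67), the Nup210 domain (1.52), Cldn4 with Cldn3 (1.23) and Pax7, a factor of neural crest and muscle (1.15), where relative signal was 0.85 ± 0.58 in Oct4+, 1.62 ± 0.11 in DP and 0.09 ± 0.75 in Pdgfra+. The lowest were a region near Dmrta1 with no coding start (-1.10), Thrb, a thyroid hormone receptor (-1.05), a region near Spr (-1.05) and Lrtm2 (-1.02). Thrb was at -0.93 ± 0.58, -2.01 ± 0.19 and -0.995 ± 0.43. The last 3 of these 4 were 5843 to 32320 bp wide and the Dmrta1 region 4954 bp, whereas the 4 highest were over 50 kb.

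Among regions with no coding start, the highest mean signals were near Fbln2, Polg, Rhbg, Grip2 and Engase, at 22601 to 93810 bases from the nearest coding start. The regions near Polg and Rhbg each held 6 starts of other annotated genes, and those near Fbln2, Grip2 and Engase held none.

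The other 3 marks were not used to choose the regions, and each was tested over its own 9 libraries. H3K27ac peaks touched 32.7, 68.6 and 3.49% of the constant regions in the Oct4+ libraries, 9.23, 0 and 12.5% in DP and 1.75, 3.49 and 3.24% in Pdgfra+, means of 34.9 ± 32.6, 7.23 ± 6.47 and 2.83 ± 0.944% (SD, n = 3). The populations were not told apart (exact permutation test of the F statistic, which has no direction, p = 0.111, adjusted p = 0.204 over 3 marks). The smallest p this test can give is 0.00357. The Oct4+ minus Pdgfra+ difference was 32.1 points, 15.3 without Oct4+ replicate 2 (adjusted exact permutation p = 0.380) and 47.8 without Oct4+ replicate 3, where the test passed (adjusted exact permutation p = 0.0429). Oct4+ replicate 3 and Pdgfra+ replicate 2 had the same share. List length differed as well, as H3K27ac lists ran from 3079 peaks in DP replicate 2, which had none of the 401, to 65131 in Oct4+ replicate 2. Held to the 3079 strongest peaks of each list, Oct4+, DP and Pdgfra+ had 1.83 ± 2.09, 0.582 ± 0.519 and 1.08 ± 0.381%.

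H3K4me1 peaks touched 17.2, 50.4 and 20.7% of constant regions in Oct4+, 9.23, 32.9 and 25.2% in DP and 1.496, 0.748 and 11.5% in Pdgfra+ (29.4 ± 18.2, 22.4 ± 12.1 and 4.57 ± 5.99%). The difference did not pass (exact permutation p = 0.136, adjusted p = 0.204). The 2 lowest shares came from the 2 shortest H3K4me1 lists. With lists held to 1074 peaks the shares were 3.41 ± 1.37, 1.08 ± 0.628 and 0.831 ± 0.381%, and this difference passed (exact permutation p = 0.0250, adjusted p = 0.0375). H3K9me3 peaks touched 12.2, 7.23 and 4.99% in Oct4+, 5.74, 12.2 and 7.98% in DP and 10.97, 1.496 and 5.24% in Pdgfra+ (exact permutation p = 0.643, adjusted p = 0.643). With equal numbers of peaks, shares were 1.25 ± 0.499, 2.49 ± 0.249 and 1.58 ± 0.144%, so that Oct4+ minus Pdgfra+ turned from 2.24 to -0.333 points and the difference among populations passed (exact permutation p = 0.0179, adjusted p = 0.0375). At equal length a list touched 0.499 to 4.99% of the 401 regions for H3K4me1 and 0.748 to 2.74% for H3K9me3. Both differences that passed thus rest on few regions.

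A consensus peak, listed in at least 2 of 3 libraries of a population, gave the mark of each region. H3K27ac was present at 122 constant regions in Oct4+ (30.4%, against 18.0% of all merged regions), at 24 in DP (5.99% against 7.24%) and at 11 in Pdgfra+ (2.74% against 4.02%). H3K4me1 was present at 100 in Oct4+ (24.9% against 10%), at 82 in DP (20.4% against 9.23%) and at 7 in Pdgfra+ (1.75% against 2.01%). H3K9me3 was present at 27, 29 and 18 (6.73, 7.23 and 4.49%, against 3.95, 4.70 and 3.87%). No peak of these 3 marks in any list was found at 50 constant regions (12.5%, against 33.9%). The lists differed in length, so these counts do not compare the populations. For H3K27ac in DP the rule needed both other lists, as DP replicate 2 had a peak in 0% of the 401. In Oct4+ it rested mainly on replicates 1 and 2, as replicate 3 had 3.49%. Wider regions meet more peaks, so the share of bases was compared as well.

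By bases, constant regions held less H3K27ac than the other merged regions, which had an H3K27me3 peak in 1 to 8 libraries. By that rule each of the others lacked a listed H3K27me3 peak in at least 1 library. Of these 10283 regions, 3941 had a peak in 1 library only. As H3K27ac and H3K27me3 cannot share a lysine, the H3K27ac comparison is not independent of how the regions were chosen. H3K27ac peaks covered 5.74 ± 6.46, 0.764 ± 0.711 and 0.296 ± 0.0588% of the bases of constant regions in Oct4+, DP and Pdgfra+ and 7.24 ± 7.06, 2.58 ± 1.83 and 1.55 ± 0.273% of the others'. The cover was lower in 9 of 9 libraries, by a mean of -1.52 ± 0.794 percentage points (exact sign-flip permutation test, two-sided, p = 0.00391, the smallest it can give, adjusted p = 0.00586). H3K9me3 cover was also lower in 9 of 9, by -0.427 ± 0.379 points (exact permutation p = 0.00391, adjusted p = 0.00586), with 0.608 ± 0.253, 0.776 ± 0.345 and 0.556 ± 0.513% against 0.742 ± 0.343, 1.26 ± 0.738 and 1.22 ± 0.915%. H3K4me1 cover was lower in 7 and higher in 2, with a mean difference of -0.190 ± 0.558 points (exact permutation p = 0.391, adjusted p = 0.391).

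These results changed at the bases listed by the most libraries, which were taken at each region's own highest number of libraries. In the 3941 of 10283 other regions with a peak in 1 library, these are all of their listed bases. In constant regions with a base in all 9 libraries, they are a median 9.85% of the region. The comparison is thus not of like bases. At these bases H3K27ac cover differed by -0.05 points (exact permutation p = 0.973, adjusted p = 0.973) and H3K4me1 cover was 4.75 points higher in constant regions (exact permutation p = 0.0312, adjusted p = 0.0469). H3K9me3 cover stayed lower, by -0.858 points (exact permutation p = 0.00391, adjusted p = 0.0117). Where both sets were held to regions with a coding start, H3K4me1 cover was lower by -0.846 points (adjusted exact permutation p = 0.0117) and H3K9me3 cover lost the threshold at -0.0935 points (adjusted exact permutation p = 0.0664).

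**Figure D4:**
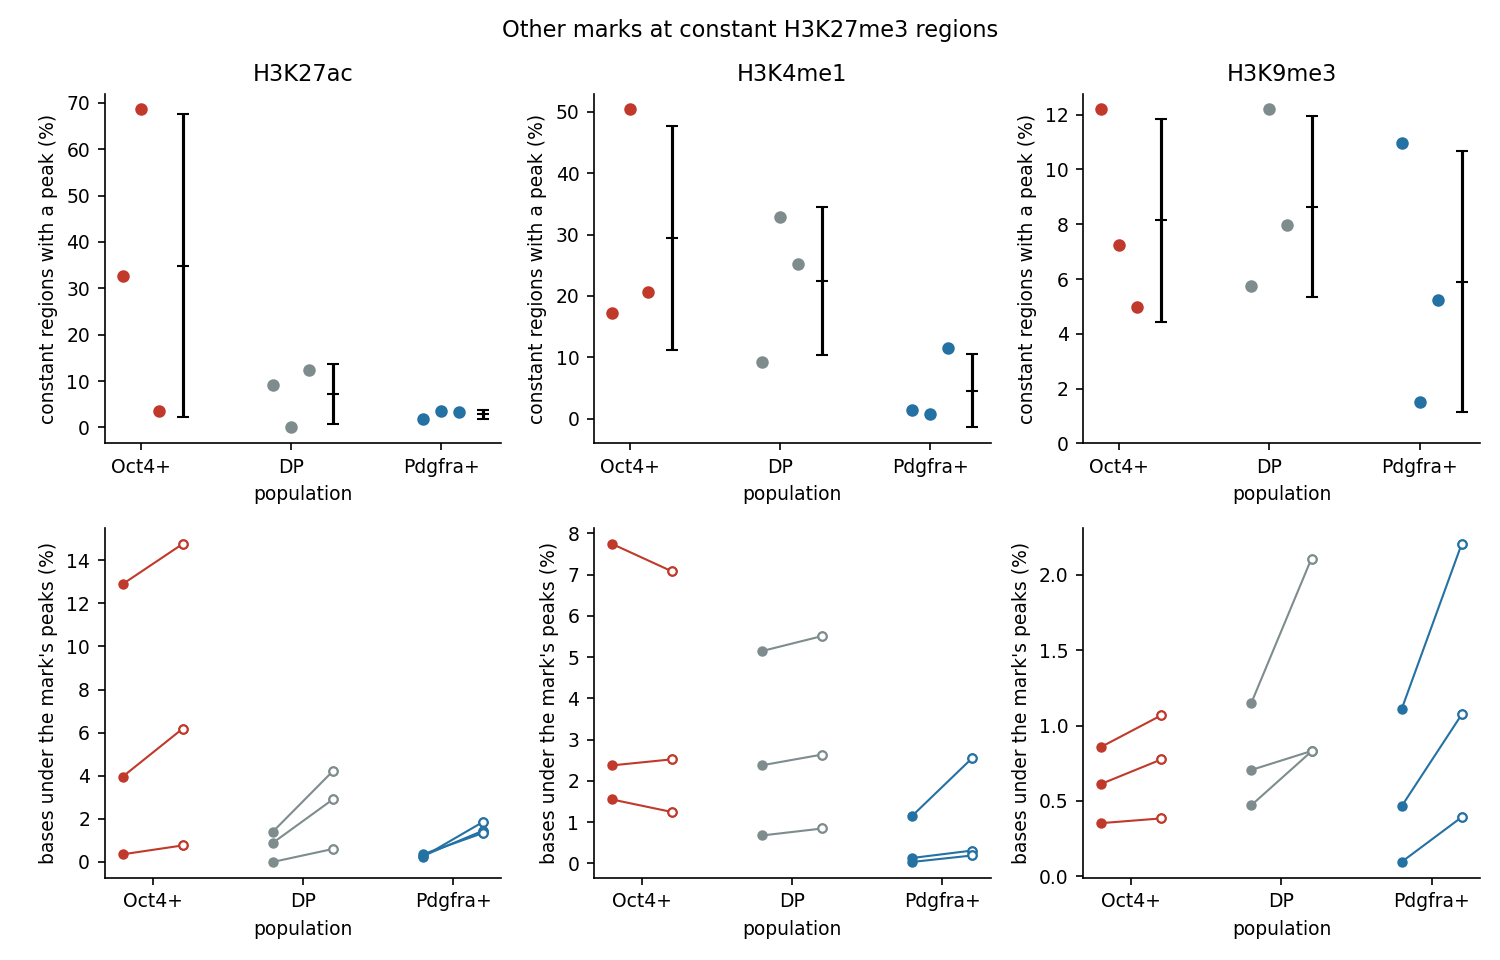
Upper row, percent of the 401 constant regions with a peak of each mark in each library (points, 3 a population; bars, mean and SD). Lower row, percent of bases under the mark's peaks in constant (filled) and other H3K27me3 regions (open), with a line for each library. H3K27ac and H3K9me3 lines rise from constant to other regions in all 9 libraries, and H3K4me1 lines fall in 2.

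In Oct4+, 45 constant regions (11.2%) had both H3K27ac and H3K4me1, 77 H3K27ac alone, 55 H3K4me1 alone and 224 (55.9%) neither. In DP the numbers were 15, 9, 67 and 310, and in Pdgfra+ 1, 10, 6 and 384. Both marks were at 11.2, 3.74 and 0.249% of constant regions in Oct4+, DP and Pdgfra+, against 4.83, 3.03 and 0.875% of the others. H3K27ac alone was at 19.2, 2.24 and 2.49%, against 12.7, 4.25 and 3.199%. H3K4me1 alone was at 13.7, 16.7 and 1.496%, against 4.61, 5.76 and 1.15%. Neither was at 55.9, 77.3 and 95.8%, against 77.8, 86.96 and 94.8%. No test was run on these shares, and as the lists differed in length they do not compare the populations. Of the 122 regions with H3K27ac in Oct4+, 51 had it on the bases most H3K27me3 libraries list, and of the 100 with H3K4me1, 58. In DP this was 4 of 24 for H3K27ac and 26 of 82 for H3K4me1.

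No constant region had H3K27ac in more than 7 of 9 libraries. The 6 with 7 were Clec11a with Shank1, Zfpm1, a cofactor of GATA factors, Kcnj9 with Kcnj10, Skor1, Podxl2 and Cldn4 with Cldn3. Clec11a with Shank1, Skor1 and Cldn4 with Cldn3 had it in 3 Oct4+, 2 DP and 2 Pdgfra+ libraries, and Zfpm1, Kcnj9 with Kcnj10 and Podxl2 in 2, 2 and 3. At Zfpm1 and Podxl2 no H3K27ac peak touched the bases most H3K27me3 lists share. With 6 libraries, Ren1 with Etnk2 had H3K27ac on those bases in all 6, as did Tnfrsf25, named after its values were seen, and Panx2 with Trabd in 0. H3K9me3 was listed in 9 libraries at the Nup210 domain and at Espnl, Klhl30 and Erfe, in 8 at Espn with Hes2 and in 7 at Nfix and Cabp7. At these 5 no H3K9me3 peak touched the shared H3K27me3 bases, whereas at Bean1, also with 7 libraries and named after its values were seen, a peak did so in 1.

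Regions with less H3K27me3 in Oct4+ than in Pdgfra+ more often had H3K27ac in Oct4+, but also other marks and H3K27ac in other populations. The groups were formed by H3K27me3 after its values were seen, so the counts are a description with no test. Of the 31 with relative H3K27me3 signal over 1 log2 unit higher in Pdgfra+, 20 (64.5%) had consensus H3K27ac in Oct4+ and 15 (48.4%) H3K4me1. Of the 357 within 1 unit, 99 (27.7%) and 82 (23.0%) did, and of the 13 with Oct4+ higher, 3 and 3 (23.1%). The 31 were also wider, with a median of 45258 bp against 21157 bp for the 357, and H3K27ac in Pdgfra+ was at 4 (12.9%) against 7 (1.96%). In DP, H3K27ac was at 6 (19.4%) against 16 (4.48%) and H3K4me1 at 13 (41.9%) against 65 (18.2%). H3K9me3 in Oct4+ was at 7 (22.6%) against 19 (5.32%), so the higher shares were not particular to H3K27ac or to Oct4+. The part of width in these counts was not tested.

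Constant regions were unevenly spread over the chromosomes. Chromosome 6 held 63 of the 401, or 42.1 per 100 Mb and 5.67 per 100 coding genes. Chromosome 11 followed by length with 31.1 per 100 Mb (2.32 per 100 coding genes) and chromosome 15 by genes with 2.68 per 100. There were 3 on chromosome 18 and none on X or Y. H3K27me3 peaks per Mb on X were 0 to 0.179 times those of the median autosome. Pdgfra+ replicate 1 listed none on X, so none of the 110 merged regions there could be constant, and Y had 0 merged regions. Chromosome 6 had 15.7% of the constant regions but 7.17% of those with 8 libraries and 6.47 to 8.67% of those with 1 to 7. Within 100 kb of another constant region lay 68 (17.0%).

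Peak density on chromosome 6 was above that of the median autosome in all libraries of 3 marks. Its H3K27me3 peaks per Mb were 1.16 to 2.46 times those of the median autosome, above 1 in 9 of 9 libraries, and highest in the shortest lists, Pdgfra+ replicate 1 (2.46) and Oct4+ replicate 1 (1.79). H3K4me1 ran from 1.38 to 2.63, H3K9me3, also above 1 in 9 of 9, from 1.02 to 1.17 and H3K27ac from 0.767 to 1.09. Chromosome 11 ran from 1.44 to 1.88 for H3K27me3, 1.31 to 1.55 for H3K4me1, 0.856 to 1 for H3K9me3 and 1.31 to 1.89 for H3K27ac. A ratio above 1 in all H3K27me3 and H3K4me1 lists was thus not particular to chromosome 6. With H3K27me3 lists of equal length, 34 of 193 constant regions (17.6%) were on chromosome 6. The number of copies of this chromosome in the cells was not tested. Left out of both sets, it changed no call on the other marks, and H3K27ac cover was then -1.59 points lower.

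**Figure D5:**
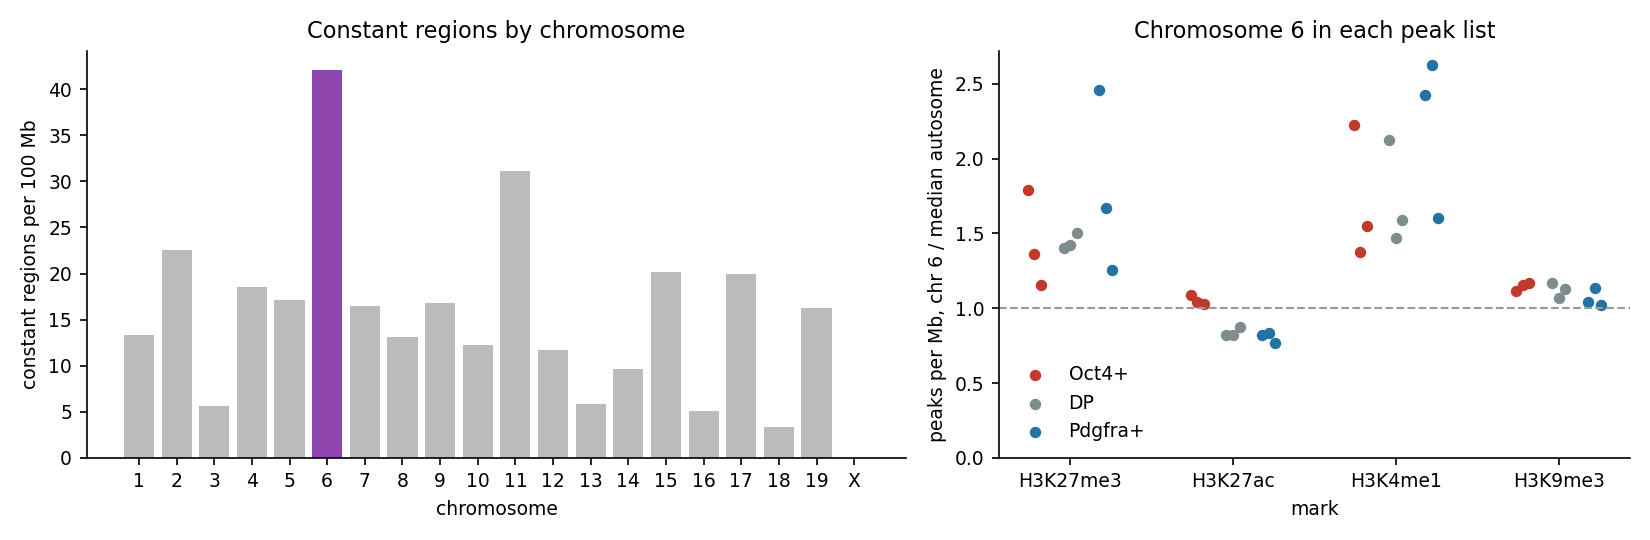
Left, constant regions per 100 Mb on each chromosome (chromosome 6 in purple at 42.1). Right, peaks per Mb on chromosome 6 over the median autosome in each library of each mark (dashed line at 1), where all H3K27me3 and H3K4me1 lists lie above 1 and the DP and Pdgfra+ H3K27ac lists below.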

How the data were processed

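CUT&Tag was performed by the authors on sorted nEnd cells. The submitters' processing notes name Bowtie2, bedtools 2.26.0 and mm10. Per the study's methods, coverage came from bedtools and SEACR called peaks in stringent mode against IgG, here in a list for each library. Each deposited list gives intervals with total and maximum signal, that is fragment coverage in whole numbers not scaled to depth. Read numbers were not given, so depth is unknown. The 3 IgG samples were not analysed here.

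Peaks were merged in Python 3.11.15 with NumPy 2.4.6, and bedtools 2.31.1 gave the same 401 regions as a check. Tests were run on simulated data with known answers first, and SciPy 1.17.1 and Matplotlib 3.10.9 served for further checks and plots. Gene starts were those of GENCODE M21 and sequence was GRCm38.p6. Relative signal was log2 of total signal over the library's median of the constant regions. Overlap needed 1 base. Shares were compared over 1680 assignments of 9 libraries to populations, and cover over 512 sign flips, each adjusted by Benjamini-Hochberg over 3 marks with a threshold of 0.05. Regions named were the 10 with the highest mean signal, up to 6 genes per list by that mean, the 6 largest and smallest Oct4+ minus Pdgfra+ and 4 DP differences, up to 8 with H3K27ac and 5 with H3K9me3 in the most libraries, up to 5 without a coding start, a set of pluripotency, endoderm and trophectoderm loci, and up to 6 listed-gene regions with 8 libraries. The members and lists were chosen with earlier results of these data known. Some regions that met the naming rule are not reported here.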

Additional observations from a re-analysis of the deposited data

How the results depend on the processing

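The number of constant regions was 402 when peaks within 1 kb were merged and 193 when each list was held to the 1143 peaks of the shortest. Leaving out a library gave 398 to 721. The Oct4+ minus Pdgfra+ difference in the share of constant regions with H3K27ac, 32.1 points, ran from 15.3 to 47.8 when a library was left out and passed without Oct4+ replicate 3 (47.8, adjusted exact permutation p = 0.0429). For H3K4me1 it ran from 14.4 to 31.0 and for H3K9me3 from 0.0416 to 4.78, and neither passed. With equal numbers of peaks H3K4me1 passed at 2.58 points, and H3K9me3 turned from 2.24 to -0.333 and passed (adjusted exact permutation p = 0.0375), with DP highest. H3K27ac then differed by 0.748 points, and each of these differences at equal numbers of peaks rests on few regions.

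For cover in constant against other regions, H3K4me1 passed at -0.249 points with equal numbers of peaks, at -0.331 against regions with 2 to 8 libraries and at -0.846 among regions with a coding start, and turned to 4.75 at the bases most libraries list. H3K27ac lost the threshold at those bases (-0.0499) and H3K9me3 among regions with a coding start (-0.0935). Leaving out a library gave -1.66 to -1.36 for H3K27ac, -0.297 to -0.0380 for H3K4me1 and -0.476 to -0.343 for H3K9me3. The bases most libraries list are not alike in constant and other regions. The cause of these changes was not tested. The coding-start and chromosome 6 settings were chosen after seeing the data.

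With the replicate number as a block, the shares gave exact permutation p of 0.194, 0.0556 and 0.778 for H3K27ac, H3K4me1 and H3K9me3 at the same differences of 32.1, 24.9 and 2.24 points, so no call changed. Same-numbered libraries correlated above 0.1 in 1, 4 and 0 of 9 pairs, so the numbers were not taken as pairs. Without depth, an unlisted peak is no evidence that a mark is absent.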
